A study of Solanum pimpinellifolium with 6 samples.

Results

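Tomato fruit ripening is controlled by a set of transcription factors, some of them of the MADS-box family. Described here are 5 from outside that family, which are not all such factors: NOR, NOR-like1, CNR, AP2a and HB1. They were taken by gene identifier out of 34723 genes with values, and 4 of the 5 had enough signal to be tested. The RNA came from fruits of the wild currant tomato Solanum pimpinellifolium (strain LA1589), collected 2 days post anthesis from hand-pollinated flowers of young plants. By the labels, 3 libraries were from RNAi line 207, a transgenic line in which the zinc finger gene SlZFP2 is the silencing target, and 3 were from its nontransgenic sibling, labelled wild type. Line 207 is a single transgenic line, described in the series design as impaired in fruit set and in abscisic acid synthesis. No source used here gives the promoter of the RNAi construct or says whether fruits were pooled, so p-values measure the spread between these libraries. The question put to the 2 genotypes is how these genes stood in young fruits, long before ripening.

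Ripening of tomato is climacteric, which means that a burst of ethylene synthesis drives colour change, softening and aroma. NOR (non-ripening) is a NAC-domain factor, and its mutants fail to ripen. NOR-like1 is a close NAC relative that promotes ripening. CNR (colourless non-ripening) is a squamosa promoter-binding (SBP) factor, known for a heritable epigenetic allele whose fruits stay pale. AP2a belongs to the APETALA2 family and acts in the opposite direction on the hormone, since fruits with less of it make more ethylene. HB1 is a homeodomain leucine zipper (HD-Zip) factor that binds the promoter of ACO1, the gene of an ethylene-forming oxidase.

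The 207-labelled libraries did not show a lower level of the silencing target. SlZFP2 (Solyc07g053570) was at 10.3, 9.03 and 7.45 FPKM in them and at 2.89, 3.05 and 0.00147 FPKM in the sibling-labelled libraries (limma adjusted p = 0.112). FPKM is a level per unit of gene length and library depth. For this reason the groups are named by their labels, as 207-labelled and sibling-labelled libraries, and a direction means one between labels only. Relative depth, read from the steps between low values with sibling replicate 1 set to 1, ran from 0.801 to 1 in the sibling-labelled libraries and from 0.384 to 0.779 in the 207-labelled libraries, so the depth moved with the labels. Its part in the results was not tested. The extraction protocol mentions shoot tips, although every sample is labelled as fruit. The carpel and ovule markers TAG1, TAGL11, MBP3, CRCa, CRCb and INO, of which 3 were tested, summed to 36 to 92.6 FPKM in the sibling-labelled libraries and to 123 to 162 FPKM in the 207-labelled libraries, with MBP3 near 0 in every library. TAG1 alone separated the labels, at 16.7 to 24.4 FPKM and 60.6 to 90.6 FPKM (limma adjusted p = 0.00877). CRCb and INO overlapped, and CRCa and TAGL11 exceeded 1 FPKM in sibling replicate 3 only. The sum of 4 shoot markers was 2.12 to 10.9 FPKM and 1.99 to 6.45 FPKM, with CLV3 listed at 0 in every library and WUS in all but line 207 replicate 2. The petal and stamen genes TAP3 and TM6 and the pollen gene LAT52 summed to 155 to 197 and 171 to 180 FPKM. Of these 3, LAT52 measured 7.58, 37.2 and 39.4 FPKM in the sibling-labelled libraries, against 6.71, 7.87 and 8.24 FPKM in the 207-labelled libraries. The part of these markers in the results was not tested.

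For 3 of the 5 regulators, namely AP2a, HB1 and NOR-like1, every 207-labelled library lay above every sibling-labelled library, and AP2a and HB1 passed the test over all genes. CNR overlapped between the groups and NOR was listed at 0 throughout. The test was limma on log2(FPKM + 1) with Benjamini-Hochberg adjustment over 15766 genes, called at an adjusted p of 0.05. Of all genes tested, 10.1% were called, 5.01% as higher and 5.04% as lower in the 207-labelled libraries, while 33.2% had groups that did not overlap and 15.6% had line 207 above. The regulators' 2 calls of 4 tested, both higher, stand against those shares. In RNA from whole fruits, a difference in the share of cells of a type and a difference in RNA per cell cannot be told apart.

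**Figure D1:**
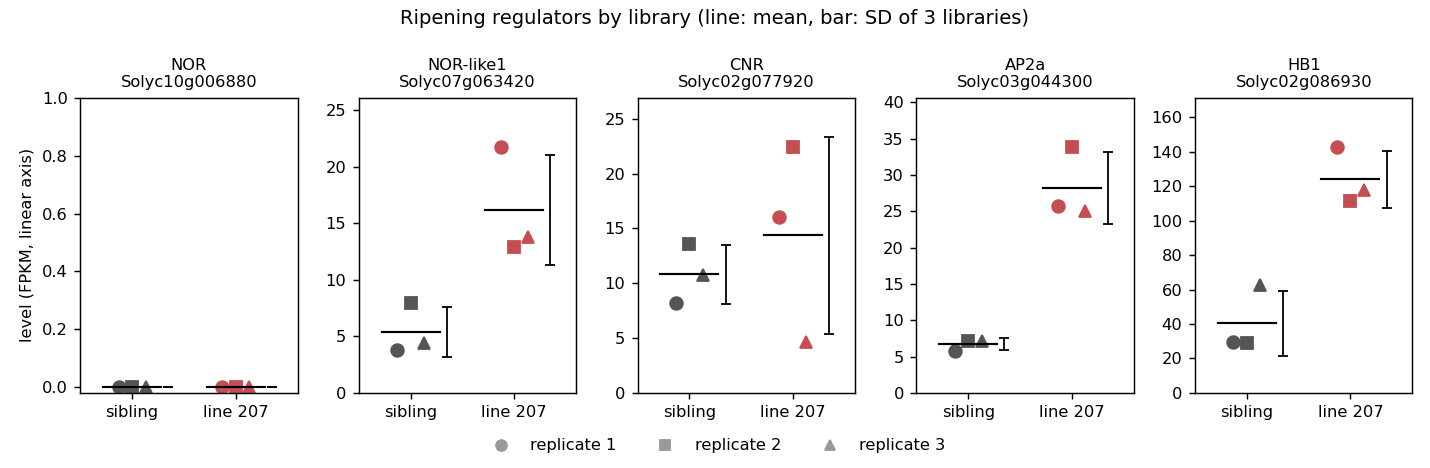
Level of each regulator in FPKM (linear vertical axes, a separate scale per gene) in the 3 sibling-labelled libraries (grey) and the 3 207-labelled libraries (red), with the group mean as a line and the SD as a bar. The groups do not overlap for NOR-like1, AP2a and HB1, CNR of line 207 replicate 3 lies below all 3 siblings, and NOR is at 0 in all 6 libraries.

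AP2a (Solyc03g044300, deposited as an AP2-like ethylene-responsive transcription factor) was higher in the 207-labelled libraries. It measured 5.75, 7.20 and 7.14 FPKM in the sibling-labelled libraries, against 25.8, 33.8 and 25.0 FPKM in the 207-labelled libraries. The groups were far apart, the lowest line 207 value lying well above the highest sibling value. The log2 fold change on the log2(FPKM + 1) scale was 1.92 ± 0.29 (SE; limma adjusted p = 0.0103), with a 95% interval from 1.24 to 2.59. It passed whichever library was left out. Its spread within the sibling group, an SD of 0.16 on the log2 scale, was at percentile 12.9 of all tested genes, and that in the 207-labelled libraries, 0.23, was at percentile 23.8. Among tested genes its level moved from between percentiles 33.2 and 38.3 in the siblings to between 70.7 and 76.2 in the 207-labelled libraries.

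HB1 (Solyc02g086930) was the most abundant of the regulators in all 6 libraries. It measured 29.5, 29.0 and 62.4 FPKM in the sibling-labelled libraries, against 143, 111 and 118 FPKM in the 207-labelled libraries. Sibling replicate 3 stood above the other siblings and still lay below every line 207 library. The log2 fold change was 1.68 ± 0.31 (SE; limma adjusted p = 0.0207), with a 95% interval from 0.94 to 2.42. Without sibling replicate 3 it was 2.04. It missed the threshold when sibling replicate 1 or 2, or a line 207 replicate, was left out (adjusted p from 0.0573 to 0.0737), and with no filter on low values (adjusted p = 0.0586). The siblings scattered more than the 207-labelled libraries, with SDs of 0.62 and 0.19 on the log2 scale. ACO1 (Solyc07g049530), whose promoter HB1 is known to bind, was at 155, 441 and 341 FPKM in the 207-labelled libraries. In the sibling-labelled libraries ACO1 was at 0.0120, 0.2 and 0.0447 FPKM. Its q in the authors' deposited table is 0.32, and a link between HB1 and ACO1 was not tested.

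NOR-like1 (Solyc07g063420) was the least abundant of the tested regulators by sibling mean. It measured 3.81, 7.94 and 4.40 FPKM in the sibling-labelled libraries, against 21.7, 12.9 and 13.8 FPKM in the 207-labelled libraries. The groups did not overlap, yet the line 207 replicates differed among themselves by more than the gap between the groups. The log2 fold change of 1.44 ± 0.42 (SE) did not pass (limma adjusted p = 0.0752), and its 95% interval ran from 0.46 to 2.43. In the authors' deposited table NOR-like1 has a q of 0.0301, and AP2a and HB1 each have a q of 0.000439, so 3 of the 5 pass there. That table calls 28.4% of the 9583 genes it tested, 12.8% as higher. The gene with the identifier just before NOR-like1, Solyc07g063410, is also a NAC gene and is one of the relatives described below. It measured 3.91, 20.1 and 19.9 FPKM in the sibling-labelled libraries, against 369, 376 and 376 FPKM in the 207-labelled libraries (limma adjusted p = 0.00487).

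CNR (Solyc02g077920, deposited as a squamosa promoter binding-like protein) did not separate the labels. It measured 8.18, 13.6 and 10.7 FPKM in the sibling-labelled libraries, against 16.1, 22.4 and 4.65 FPKM in the 207-labelled libraries. Line 207 replicates 1 and 2 lay above every sibling and replicate 3 lay below every sibling. The log2 fold change was 0.17 ± 0.57 (SE; limma adjusted p = 0.878), with a 95% interval from -1.17 to 1.52, which leaves room for a change of either sign. The sign turned without line 207 replicate 1 (-0.01) or replicate 2 (-0.24), and the value was 0.78 without replicate 3. The SD of CNR on the log2 scale was 0.33 in the sibling-labelled libraries and 1.08 in the 207-labelled libraries, at percentiles 36.9 and 77.6 of the tested genes. The authors' deposited q for CNR is 0.677.

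NOR (Solyc10g006880, deposited as a NAC domain protein) was listed at 0 in all 6 libraries and was not tested. The same held for 12373 genes, or 35.6% of those with values. A listed 0 can also be a failed estimate, which these values cannot tell apart from absent RNA. Of 46 genes described as actin, ubiquitin or glyceraldehyde-3-phosphate dehydrogenase, 15 were at 0 in all 6 libraries. That share is close to the one over all genes, and whether any of these is a failed estimate was not tested. The genes with the identifiers before and after NOR, Solyc10g006870 and Solyc10g006890, were at 0.438 to 7.07 FPKM and at 2e-09 to 8.30 FPKM. The second was near 0 in sibling replicates 2 and 3.

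**Figure D2:**
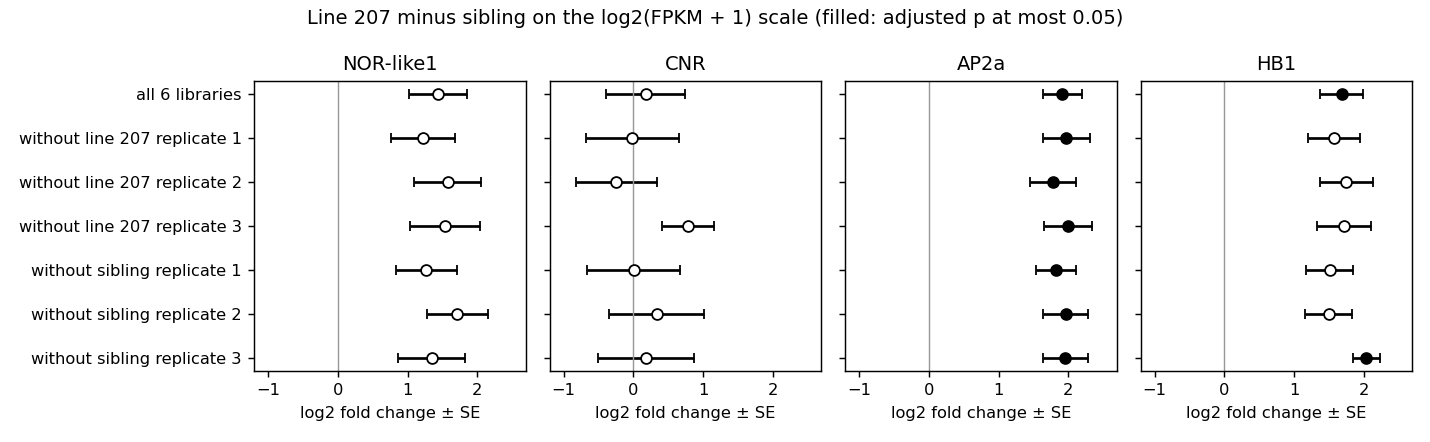
Log2 fold change (line 207 minus sibling, on the log2(FPKM + 1) scale) of the 4 tested regulators with all 6 libraries and with each library left out, with SE bars; filled points have a limma adjusted p of at most 0.05. AP2a is filled in every row, HB1 with all libraries and without sibling replicate 3, and CNR crosses 0 between rows.

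The order of the levels changed between the labels below HB1. In the sibling-labelled libraries CNR came next, followed by AP2a and NOR-like1. CNR at 8.18 to 13.6 FPKM and AP2a at 5.75 to 7.20 did not overlap, whereas AP2a and NOR-like1, at 3.81 to 7.94, did. In the 207-labelled libraries AP2a came second, at 25.0 to 33.8 FPKM, above both NOR-like1 at 12.9 to 21.7 and CNR at 4.65 to 22.4, and these last 2 overlapped. Ratios within a library, which do not depend on how libraries are scaled, restate this order and give its size. The ratio of CNR to AP2a was 1.42, 1.88 and 1.5 in the sibling-labelled libraries and 0.623, 0.663 and 0.186 in the 207-labelled libraries. CNR was thus the higher of the 2 in every sibling-labelled library and the lower in every 207-labelled library. The ratio of AP2a to HB1 overlapped between the groups, from 0.115 to 0.248 in the siblings and from 0.181 to 0.304 in the 207-labelled libraries. So did that of NOR-like1 to HB1, at 0.0705 to 0.274 and 0.116 to 0.152. HB1 held 50.3% to 73.7% of the summed level of the 5 genes in the sibling-labelled libraries and 61.7% to 73.0% in the 207-labelled libraries. That sum itself was 47.3 to 84.6 FPKM in the siblings and 161 to 206 FPKM in the 207-labelled libraries.

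The genes whose values moved most like each regulator were found by the root mean square difference of log2(FPKM + 1) values centred over the 6 libraries. They were picked for this closeness, so a shared difference between labels or order of replicates follows from the choice. For AP2a these were Solyc03g044790, deposited as an alpha-hydroxynitrile lyase, at 0.106, and Solyc05g009420, an unknown protein, at 0.115. Both lay at 39.8 to 60.5 FPKM in the sibling-labelled libraries and at 153 to 225 in the 207-labelled libraries. For HB1 they were Solyc07g009130, described as a potassium-transporting ATPase B chain, at 0.129, and Solyc01g103970, a RING finger protein, at 0.168. For NOR-like1 the nearest was another homeobox-leucine zipper gene, Solyc01g010600, at 0.0962. It measured 1.92, 3.84 and 2.33 FPKM in the sibling-labelled libraries, against 13.4, 6.38 and 7.80 FPKM in the 207-labelled libraries, with the same order of replicates within each group. The second was Solyc10g050430, a viral-response family protein, at 0.146. The matches to CNR were looser, at 0.211 for Solyc09g065690, described as a jumonji-domain transcription factor, and 0.215 for Solyc05g051370. Solyc09g065690 shared the low value in line 207 replicate 3, at 9.23, 10.6 and 2.14 FPKM in the 3 207-labelled libraries.

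The other ripening regulators, a list of 11 that includes the MADS-box genes and the factors NAC1 and NAC4, gave no call. Of the 8 tested, 0 passed in limma, 3 had an unadjusted p under 0.05, all higher, and 4 passed as higher by the authors' deposited q. Their median log2 fold change was 0.70, beside -0.09 over all tested genes. Of all 15766 genes tested, 1907 were higher and 2229 lower at an unadjusted p under 0.05. RIN (Solyc05g012020), the MADS-box factor whose mutant fails to ripen, was at 2.59e-54 FPKM or less in every library. FUL1 (Solyc06g069430) was at 44.7 and 24.1 FPKM in line 207 replicates 2 and 3 and at 0.0572 FPKM or less in the other 4 libraries. NAC4 (Solyc11g017470) measured 11.8, 20.3 and 44.9 FPKM in the sibling-labelled libraries and 73.0, 82.4 and 61.6 FPKM in the 207-labelled libraries, without overlap (limma adjusted p = 0.0631; 0.0203 without sibling replicate 3, and 0.11 to 0.168 without any other library). NAC1 (Solyc04g009440) was at 3.31, 12.2 and 19.3 FPKM against 34.3, 35.6 and 29.0 (limma adjusted p = 0.106). APRR2-like (Solyc08g077230), a response regulator-like factor of fruit pigmentation, was at 20.7, 10.1 and 11.6 FPKM against 35.6, 38.1 and 26.3 (limma adjusted p = 0.0611; 0.0316 without sibling replicate 1, and 0.0966 to 0.165 without any other library). The MADS-box gene FUL2 (Solyc03g114830) averaged 111 ± 25.1 FPKM (SD, n = 3) in the sibling-labelled libraries and 121 ± 5.50 in the 207-labelled libraries.

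Among 19 genes that act downstream in ripening, 13 were tested. Of these, 4 were higher and 1 lower in the 207-labelled libraries, or 38.5% called beside 10.1% over all genes tested. Their median log2 fold change was 1.91. ACO1, given above, and the oxidase-like gene E8 (Solyc09g089580), which is induced at ripening, were 2 of the 4. Both met the filter on low values only through the 207-labelled libraries, as did ACS2 below, so their direction was largely fixed by entry. The authors' deposited table calls neither, with a q of 0.32 for ACO1 and 0.118 for E8, and by its q 3 of the 19 were higher and 2 lower. SGR1 (Solyc08g080090), a stay-green gene of chlorophyll breakdown, measured 8.28, 15.8 and 31.7 FPKM in the sibling-labelled libraries, against 139, 110 and 107 FPKM in the 207-labelled libraries (limma adjusted p = 0.0119). XTH5 (Solyc01g081060), a cell wall xyloglucan enzyme, was at 14.5, 43.1 and 55.1 FPKM against 119, 154 and 144 (limma adjusted p = 0.0370), and missed the threshold when sibling replicate 2 or a line 207 library was left out (adjusted p at most 0.111). The lower gene was LOXC (Solyc01g006540), a lipoxygenase of flavour synthesis. The softening gene PL (Solyc03g111690, pectate lyase) measured 40.6, 20.9 and 30.5 FPKM in the sibling-labelled libraries and 11.2, 12.5 and 14.7 in the 207-labelled libraries, lower without overlap but not past the test (limma adjusted p = 0.0604). TBG4 (Solyc12g008840), a beta-galactosidase, and ACS2 (Solyc01g095080), an ethylene synthesis gene, had groups that did not overlap and missed the threshold (limma adjusted p = 0.0692 and 0.07). The fruit polygalacturonase PG (Solyc10g080210) and the mannanase MAN4 (Solyc01g008710) were listed at 0 in all 6 libraries, and PSY1 (Solyc03g031860), the phytoene synthase of ripe fruit, exceeded 1 FPKM in 1 library only, sibling replicate 3.

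**Figure D3:**
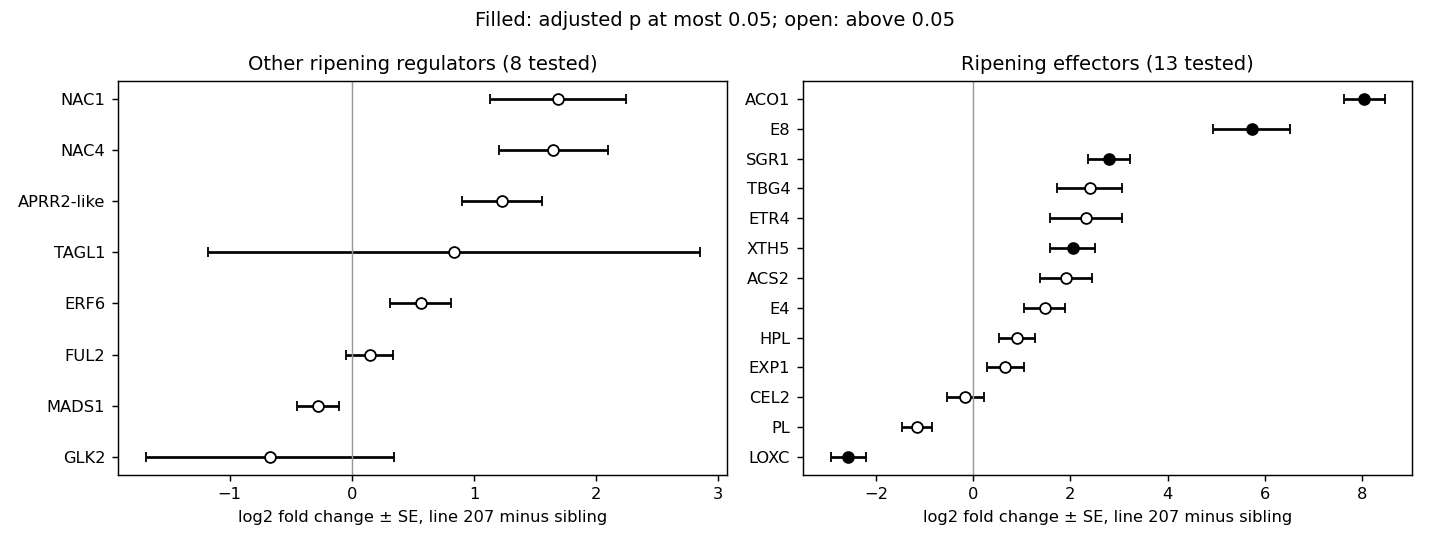
Log2 fold change with SE (line 207 minus sibling, log2(FPKM + 1) scale) of the 8 tested other ripening regulators (left) and the 13 tested ripening effectors (right); filled points have a limma adjusted p of at most 0.05. No regulator is filled, and the filled effectors are ACO1, E8, SGR1 and XTH5 above 0 and LOXC below 0.

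Each regulator was also set beside its own gene family, found by words in the deposited descriptions. Among 34 other HD-Zip genes tested, 6 were higher and 0 lower in limma, or 17.6% called beside 10.1% over all genes tested. At an unadjusted p under 0.05, 9 were higher and 1 lower, beside 1907 higher and 2229 lower of all 15766 genes tested. By the authors' q, 0 of these relatives were lower. Their median log2 fold change was 0.27. The 6 had log2 fold changes from 3.00 to 4.38, against 1.68 for HB1, a difference that was not tested. They were picked for passing the test, which favours large folds, and the other tested relatives lay at 1.44 or below. Some of the 6, among them 1 at 0 in every sibling-labelled library, met the filter on low values only through the 207-labelled libraries. Solyc06g053220 measured 11.6, 13.2 and 19.8 FPKM in the sibling-labelled libraries, against 215, 230 and 182 FPKM in the 207-labelled libraries (log2 fold change 3.76 ± 0.23 (SE); limma adjusted p = 0.000942). Solyc02g085630 averaged 82.7 ± 37.1 FPKM (SD, n = 3) and 751 ± 104 FPKM in the sibling- and 207-labelled libraries (limma adjusted p = 0.00488). Solyc03g082550 was at 1.44, 0.924 and 6.71 FPKM against 52.4, 74.7 and 79.0 (limma adjusted p = 0.00641). All 3 kept their call whichever library was left out. HB1 was thus one of 7 called HD-Zip genes, each higher in the 207-labelled libraries.

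Among 43 other NAC-domain genes tested, 8 were higher and 1 lower, or 20.9% called beside 10.1% over all genes tested. Their median log2 fold change was 0.64. The count called was 3 to 9 when each library was left out in turn. It fell to 4, 4 and 3 without line 207 replicates 1, 2 and 3. The highest of the 8 by fold was Solyc07g063410, the identifier next to NOR-like1, at 25.6-fold (log2 fold change 4.86 ± 0.55 (SE)). Solyc06g060230 averaged 41.8 ± 10.02 FPKM (SD, n = 3) and 129 ± 16.1 FPKM, a 3.09-fold rise (limma adjusted p = 0.00729). The ratio of means of NOR-like1, which did not pass, was 3.00. The lower gene was Solyc10g055760, at 35.2, 51.6 and 45.8 FPKM in the sibling-labelled libraries, against 8.72, 4.47 and 5.66 FPKM in the 207-labelled libraries (limma adjusted p = 0.00588). Of the 91 other NAC-domain genes in the table, 26 were listed at 0 in all 6 libraries, as NOR was.

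The shares of called relatives of AP2a and CNR, 7.69% and 0%, stand beside 10.1% over all genes tested, and with so few relatives nothing is read from them. Of 13 other AP2-like genes tested, 1 was lower and 0 higher in limma. At an unadjusted p under 0.05, 3 were lower, that gene among them, and 1 was higher. Over all 15766 genes tested, 2229 were lower and 1907 higher at that threshold. Groups did not overlap for 4 lower AP2-like genes and 1 higher one, beside 33.2% of all genes tested, 15.6% with line 207 above. The authors tested 1 of these genes, and 0 passed by their q. The called gene, Solyc09g007260, measured 13.0, 7.61 and 7.45 FPKM in the sibling-labelled libraries (limma adjusted p = 0.0158). In the 207-labelled libraries it was at 0.524 FPKM or less, so it met the filter on low values only through the sibling-labelled libraries. It missed the threshold when sibling replicate 2 was left out (adjusted p = 0.0534). Solyc06g068570, with the same deposited description as AP2a, measured 0.658, 1.66 and 0.771 FPKM in the sibling-labelled libraries, against 4.64, 5.36 and 5.12 FPKM in the 207-labelled libraries. Its groups did not overlap, and its ratio of means was 4.89 beside 4.21 for AP2a, but it missed the threshold (limma adjusted p = 0.0802). Solyc06g075510, Solyc04g077490 and Solyc02g064960 carry the same description and lay the other way without overlap. Their log2 fold changes were -1.82, -1.03 and -0.45, and they also missed the threshold (limma adjusted p = 0.112, 0.189 and 0.518). Of 11 other SBP genes tested, 0 passed in limma, 2 had an unadjusted p under 0.05, both lower, and 1 passed as lower by the authors' deposited q. Their median log2 fold change was -0.18, beside 0.17 for CNR.

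**Figure D4:**
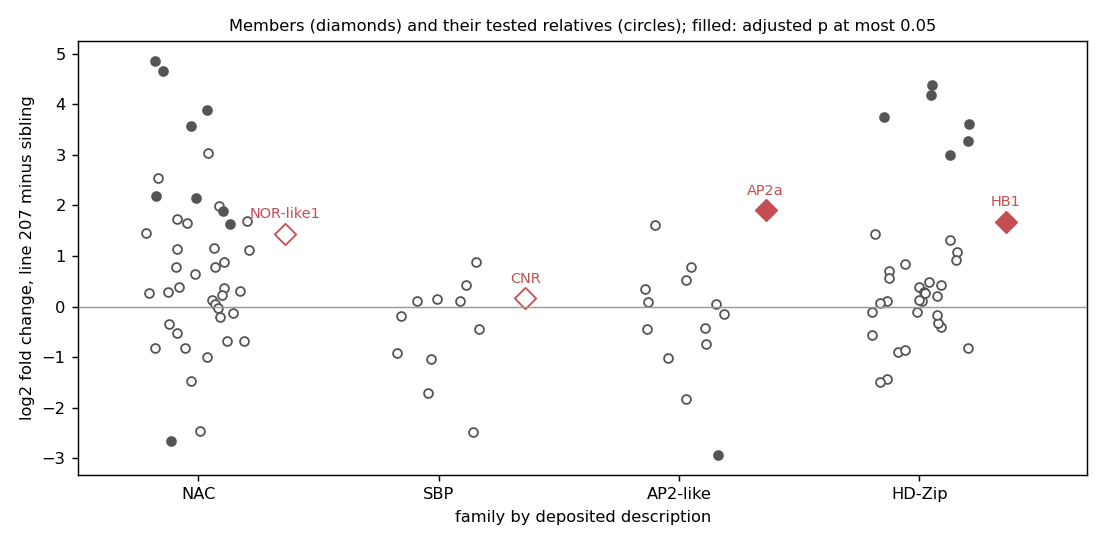
Log2 fold change (line 207 minus sibling, log2(FPKM + 1) scale) of the tested regulators (red diamonds) and of the other tested genes of their families (circles, spread sideways at random); filled symbols have a limma adjusted p of at most 0.05. NOR is not drawn because it was not tested. The filled HD-Zip circles all lie at 3.00 or above, over HB1 at 1.68, and the open ones at 1.44 or below.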

How the data were processed

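RNA of 6 libraries, 3 for each label, was compared. The authors deposited 1 table of levels per gene, taken here to be FPKM: its values have decimals and library totals that vary, and the submitters' processing notes list TopHat 1.3.2 and Cufflinks. No source used here gives the genome build, the annotation or how libraries were scaled. The deposited p-value and q-value are the authors' own (untested genes carry a 1). Of 34727 rows, 4 without values were left out. FPKM estimates can divide reads between near-identical genes, so members of the NAC and HD-Zip families are less certain than single-copy genes. Of the values above 0, 14.2% to 16.1% per library lay under 0.01 FPKM, and total read depth is unknown.

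Genes with at least 1 FPKM in 3 or more libraries were tested on log2(FPKM + 1) with limma (version 3.58.1, R 4.3.3), using a prior that follows the mean level and no replicate block. The procedure was tested on simulated data. P-values were adjusted over all tested genes by the Benjamini-Hochberg method. Log2 fold changes on this scale understate the change of low genes. Linear folds are ratios of group means, given only where both means are at least 0.5 FPKM.

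The regulators and gene lists were chosen with earlier results of these data known. Genes named are the 5 regulators, the silencing target, in each ripening list every called gene and up to 3 more with the smallest p, in each family up to 3 called genes with the smallest p, and the 2 nearest profiles per tested regulator. RIN, FUL1, FUL2, PG, MAN4, PSY1, ERF6, E4, EXP1, TAGL1, GLK2, DML2, ETR4, HPL, MADS1, CEL2, ACS4, ADH2 and NR were added outside that rule, after their values were seen. So were Solyc06g068570, Solyc06g075510, Solyc04g077490, Solyc02g064960, the 2 neighbours by identifier and the markers. Subunits of the nascent polypeptide-associated complex, also abbreviated NAC, were kept out of the NAC family. Symbols other than those of the 5 regulators were paired with identifiers from general knowledge, not from the table. Alternatives were another pseudocount, filters and scalings, the authors' q-value, the replicate block, and each library left out.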

Additional observations from a re-analysis of the deposited data

How the results depend on the processing

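AP2a kept its direction and its call under every alternative run, with log2 fold changes from 1.78 to 2.08. HB1 and NOR-like1 kept their direction under all of them, HB1 at 1.498 to 2.04 and NOR-like1 at 1.22 to 1.71 with each library left out. With no filter beyond a value above 0, HB1 stayed at 1.68 but lost its call, which left 1 regulator called, and NAC calls fell to 4. By the authors' q-value NOR-like1 passed at 1.58 (log2 ratio of means), 2722 genes were called in all, with 14 NAC, 0 AP2-like, 1 SBP and 4 other regulators. With a mean of at least 10 FPKM the calls were 0 AP2-like, 1 SBP and 2 other regulators, and with quantile normalization 1 SBP gene was called.

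With each library left out, the value of CNR ran from -0.24 to 0.78, regulators called from 1 to 2, genes called in all from 706 to 1219, NAC from 3 to 9, AP2-like from 0 to 1 and other regulators from 0 to 1. Each such fit has fewer samples, and the cause was not tested.

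Same-numbered libraries had correlations of deviations of 0.00397, -0.00806 and -0.0105, so no shared replicate effect was seen. The labels do not say whether same-numbered libraries were prepared together, and these values cannot show it. With the replicate number as a block, 894 genes and 0 AP2-like relatives were called. The scalings shifted the median of all tested genes by less than 0.1 on the log2 scale. Shallower sequencing makes low values less precise.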

Other observations

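None of the remaining genes of the ripening lists passed in limma, E4, ETR4 and HPL had an unadjusted p under 0.05, and ERF6 and HPL passed by the authors' deposited q. ERF6 (Solyc01g065980), an ethylene response factor, measured 188, 258 and 295 FPKM in the sibling-labelled libraries, against 295, 468 and 337 FPKM in the 207-labelled libraries. E4 (Solyc03g111720), a methionine sulfoxide reductase, was at 33.7, 42.3 and 12.5 FPKM against 66.9, 81.9 and 76.3, without overlap (limma adjusted p = 0.075). EXP1 (Solyc06g051800), an expansin, was at 5.29, 8.28 and 4.71 FPKM against 10.3, 9.33 and 10.2. TAGL1 (Solyc07g055920), a MADS-box gene, was at 28.2, 0.000922 and 30.9 FPKM against 72.0, 70.9 and 0.0124, so that 1 library of each label was near 0. GLK2 (Solyc10g008160), a factor of chloroplast development, was at 9.32, 8.85 and 2.95 FPKM against 0, 13.1 and 6.03. The DNA demethylase gene DML2 (Solyc10g083630) was at 5.003 FPKM in line 207 replicate 1 and near 0 in the other 5 libraries. ETR4 (Solyc06g053710), an ethylene receptor, was at 2.49, 5.01 and 0.328 FPKM against 29.0, 12.5 and 7.45, without overlap (limma adjusted p = 0.0975). HPL (Solyc07g049690), deposited as a cytochrome P450, was at 140.4, 48.2 and 68.3 FPKM against 143, 165 and 132 (limma adjusted p = 0.177); its q in the authors' deposited table is 0.00183. The MADS-box gene MADS1 (Solyc03g114840) was at 118 to 145 FPKM and 97.3 to 128 FPKM, and CEL2 (Solyc09g010210), an endoglucanase, at 12.7 to 29.0 and 12.9 to 19.6, both overlapping. ACS4, ADH2 and NR each exceeded 0.5 FPKM in at most 2 libraries and were not tested.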
